A study of Mus musculus with 10 samples.

Results

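The 10 genes described here encode the PGC-1 coactivators, the estrogen-related receptors (ERR), 2 peroxisome proliferator-activated receptors (PPAR) and the retinoid X receptors (RXR). They are Ppara, Ppard, Ppargc1a, Ppargc1b, Esrra, Esrrb, Esrrg, Rxra, Rxrb and Rxrg, and they were taken by name from 45882 Ensembl gene IDs after the deposited transcript values had been summed by gene. The RNA came from left-ventricular heart muscle cells (isolated cardiac myocytes) of C57BL/6 mice, 1 mouse per library. The control group held 3 mice with the genotype control, and the CTCF knockout group held 4 mice with the genotype CTCF_knockout, CTCF being the DNA-binding protein that anchors chromatin loops. The TAC group held 3 mice after transverse aortic constriction, an operation that narrows the aortic arch and so raises the pressure against which the ventricle pumps, and the design text describes these hearts as diseased. The labels give no genotype for the TAC mice, and the ages, the time after surgery, and the agent and driver of the knockout are not given in the sources used here.

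PPARs and ERRs are nuclear receptors that switch on genes for fatty acid uptake, fatty acid oxidation and mitochondrial respiration. PPARs bind DNA as dimers with an RXR, the receptor for 9-cis retinoic acid, whereas ERRs bind as orphan receptors with no known natural hormone. PGC-1 proteins do not bind DNA themselves, but dock on ERRs, PPARs and other factors and recruit the machinery that opens chromatin and starts transcription. In the adult heart, which draws most of its energy from fatty acids, this network is known to keep the oxidative enzymes high.

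Levels are in FPKM (fragments mapped to a transcript, divided by its length and by the size of the library), rescaled so that the typical gene had the same level in every library. Fold changes are differences of log2(FPKM + 1) from limma, which understates changes of low genes, and a gene was called changed at a Benjamini-Hochberg adjusted p under 0.05 over the 11358 genes tested. Ctcf lay at 6.81 to 8.81 FPKM in the controls, at 2.60 to 4.42 in the knockout and at 5.22 to 7.32 after TAC, and the part of the gene that was deleted is not given in the sources used here. The summed level of 12 cardiac myocyte markers was 35030 to 47340 FPKM in all libraries, while single markers went both ways: 2 rose and 5 fell in the knockout, and 2 rose and 3 fell after TAC. Ryr2, the calcium release channel, was at 43.3% of its control mean in the knockout, and Mybpc3, a thick-filament protein, at 176.5%. Summed fibroblast markers (9 genes) were 76.0 to 143 FPKM in the controls, 149 to 229 in the knockout and 182 to 211 after TAC. Of these genes 4 rose and 0 fell in each comparison with the controls. The mean of Col3a1, a collagen gene, was 17.1, 62.2 and 64.0 FPKM in the 3 groups. That of Dcn was 66.3, 69.2 and 68.9 FPKM, and that of Dpt 8.33, 6.82 and 6.25. Endothelial markers (9 genes) summed to 75.2 to 104, 95.6 to 170 and 110 to 170 FPKM in the same order. Macrophage and leukocyte markers (9 genes) summed to 65.0 to 89.1, 72.0 to 119 and 101 to 117 FPKM, and smooth muscle and pericyte markers (8 genes) to 76.1 to 106, 52.0 to 66.8 and 63.6 to 68.8. In this last list 1 gene rose and 1 fell in each comparison with the controls. The mean of Acta2, a smooth muscle actin, was 31.1, 11.1 and 14.8 FPKM, and that of Cspg4, a pericyte proteoglycan, 2.31, 6.06 and 6.89. The part of these other cells in the results that follow was not tested. In such bulk RNA, fewer cells of a type and less RNA per cell cannot be told apart.

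All 10 genes were above the filter of a mean of 1 FPKM, and they spanned about an order of magnitude. Esrra was highest with a mean of 44.8 FPKM over the 10 libraries, followed by Ppargc1a (37.4), Rxrg (20.4) and Ppara (18.8). Esrrg (10.1), Rxrb (9.74), Rxra (8.61), Esrrb (7.87) and Ppargc1b (7.61) lay close together, and Ppard was lowest at 3.66. Ppargc1a exceeded Rxrg, Ppara exceeded Esrrg, and Ppargc1b exceeded Ppard in 10 of 10 libraries each. Between the other neighbours the order was not the same in all libraries: Esrra exceeded Ppargc1a in 8, Rxrg exceeded Ppara in 7, Esrrg exceeded Rxrb in 6, Rxrb exceeded Rxra in 7, Rxra exceeded Esrrb in 5, and Esrrb exceeded Ppargc1b in 6 of 10. By group mean Rxra had rank 5 in the controls and rank 9 in both other groups.

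**Figure D1:**
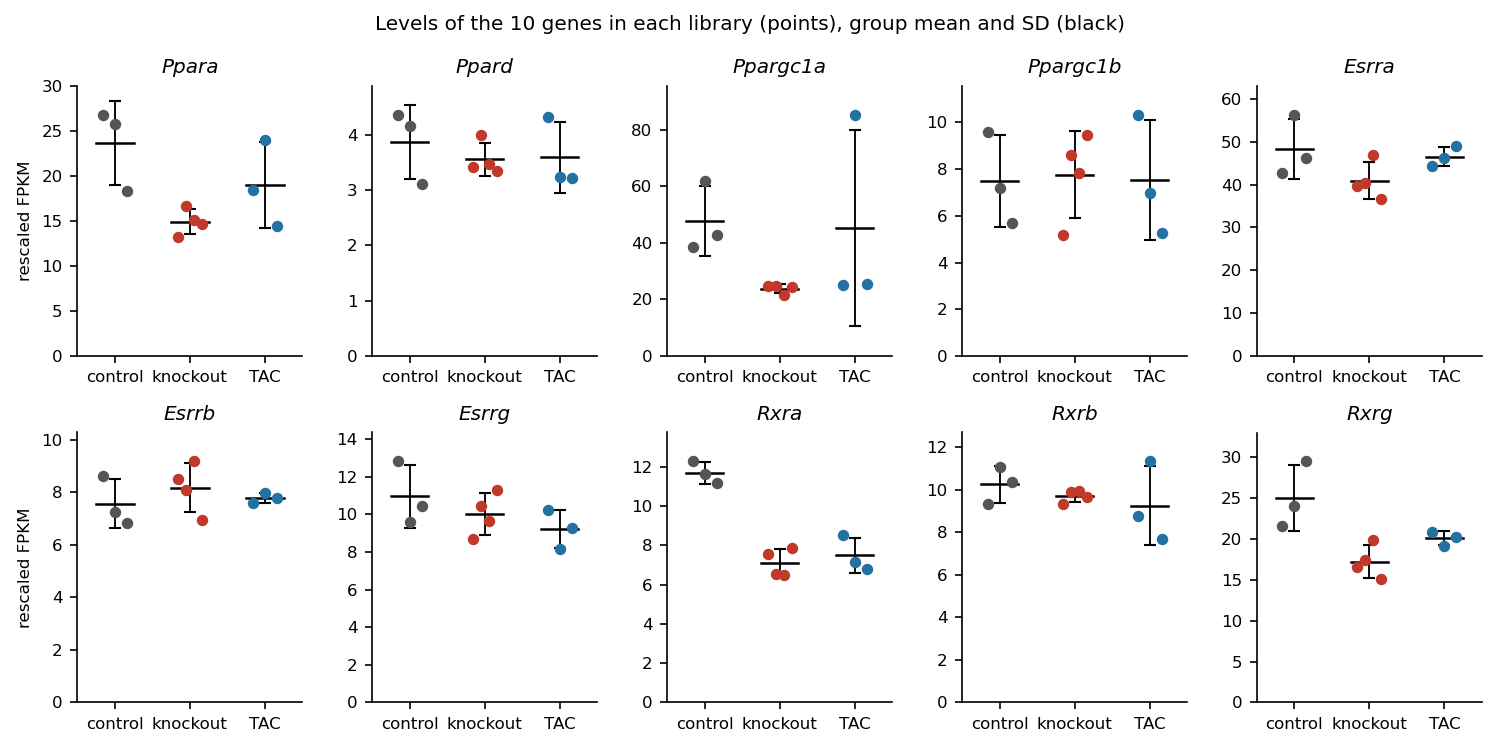
Rescaled FPKM (vertical axes, starting at 0 and scaled per gene) of the 10 genes in the 3 control, 4 CTCF knockout and 3 TAC libraries; points are libraries, black lines the group mean and SD. The Rxra points of both other groups lie below all control points, and 1 TAC library stands far above the other 2 for Ppargc1a.

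In knockout myocytes 3 of the 10 genes fell (Rxra, Rxrg and Ppara) and none rose. Over all tested genes 20.8% were called in this comparison, 10.2% lower and 10.6% higher, so 3 of 10 called is a share of the same order as the background. After TAC 1 of the 10 fell (Rxra) and none rose, against 15.5% called over all genes, 7.37% lower and 8.08% higher. The median log2 fold change of the 10 was -0.17 in the knockout and -0.18 after TAC, beside -0.01 and -0.005 over all genes tested. Both comparisons use the same 3 controls. Between knockout and TAC limma called none of the 10, none had an unadjusted p under 0.05, and 3.28% of all genes were called. Without rescaling the median of all genes was 0.10 in the knockout comparison, and the calls over all genes shifted from 1203 higher and 1159 lower to 1670 higher and 603 lower.

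**Figure D2:**
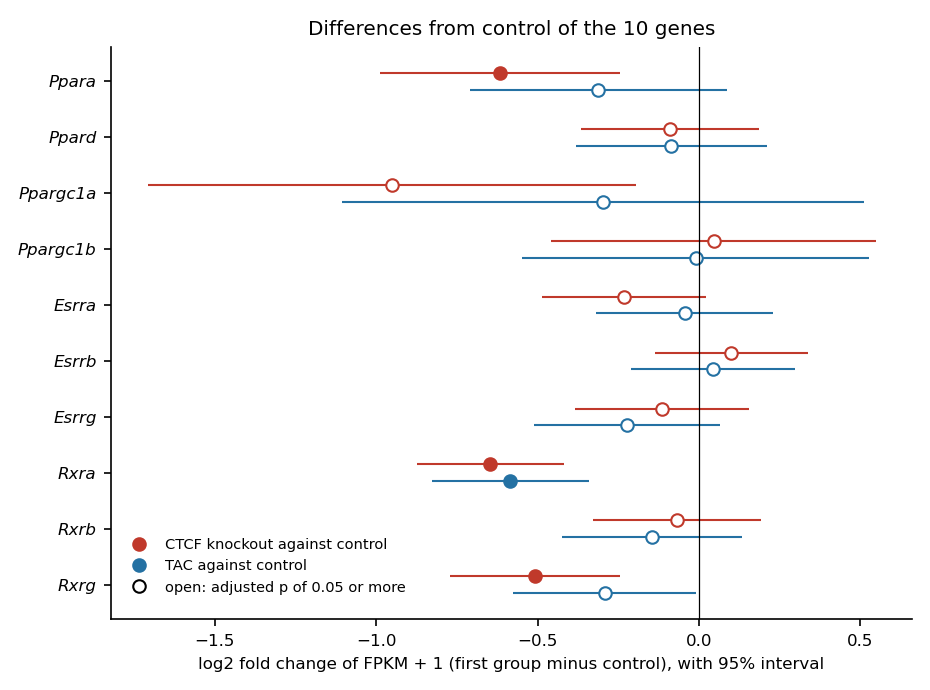
Log2 fold change of FPKM + 1 (horizontal axis) against control for the 10 genes, with 95% intervals from limma; red is CTCF knockout (n = 4) and blue is TAC (n = 3), each against 3 controls, and filled points have an adjusted p under 0.05. Rxra is filled in both comparisons, and Ppara and Rxrg are filled for the knockout.

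Rxra (chr2:27676440-27762957, plus strand, mm10), a broadly expressed dimer partner of the PPARs, fell in both groups. It lay at 12.3, 11.6 and 11.2 FPKM in the controls (11.7 ± 0.56, SD, n = 3). It lay at 7.55, 6.56, 6.50 and 7.89 FPKM in the knockout (7.12 ± 0.70, n = 4) and at 8.51, 7.15 and 6.81 after TAC (7.49 ± 0.90, n = 3). Every library of both groups was below every control, a separation that 30.8% of all tested genes showed between knockout and control and 31.6% between TAC and control. The log2 fold change was -0.65 (SE 0.10) in the knockout with a limma adjusted p of 0.00148, and -0.59 (SE 0.11) after TAC with an adjusted p of 0.00536. Both calls held under all 24 alternative settings, with adjusted p from 0.00115 to 0.00702 in the knockout and from 0.004 to 0.0242 after TAC. The knockout and TAC levels differed by -0.06 on the log2 scale (95% interval -0.29 to 0.17).

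Between 87.8 and 98.2% of Rxra FPKM in each library came from the start at chr2:27677201, where the full-length model Rxra-201 of 467 codons begins. Rxra-201 also fell on its own, with log2 fold changes of -0.77 in the knockout (limma adjusted p = 0.00411) and -0.62 after TAC (adjusted p = 0.0193). The TAC call held in 19 of 24 alternatives and was lost without a filter on the mean and without TAC replicate 2, TAC replicate 3, control replicate 1 or control replicate 2 (adjusted p of up to 0.0702). The 250 bases before this start, chr2:27676951-27677200 on the plus strand of GRCm38.p6 from RefSeq, are shown because they precede the main start of the gene that fell in both groups. They are 81.2% G and C, hold 40 CpG dinucleotides, and hold none of the motifs searched, so no letter is in capitals:

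Rxra promoter: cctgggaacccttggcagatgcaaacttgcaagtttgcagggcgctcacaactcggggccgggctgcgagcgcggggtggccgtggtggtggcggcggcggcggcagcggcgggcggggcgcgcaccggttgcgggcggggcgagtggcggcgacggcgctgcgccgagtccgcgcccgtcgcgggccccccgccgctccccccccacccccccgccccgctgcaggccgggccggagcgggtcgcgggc

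The motifs searched on both strands in the 300 bases from 250 before to 50 after each RefSeq start were the nuclear receptor core AGGTCA, the ERR element TNAAGGTCA, the direct repeat of 2 AGGTCA cores 1 base apart that PPAR and RXR dimers bind, the MEF2 element (CTA and TAG 4 bases apart), the CREB element TGACGTCA and the E-box CACGTG. The receptor core lies inside the ERR element and the direct repeat. Of 32851 mouse promoters of this length, 16.3% held AGGTCA, 1.28% the ERR element, 0.0396% the direct repeat, 3.69% the MEF2 element, 1.79% the CREB element and 7.15% the E-box.

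Rxrg (chr1:167598384-167639623, plus strand), the RXR most restricted to muscle and parts of the brain, was the most abundant RXR and made up 46.2 to 58.2% of the summed RXR level in each library. It lay at 21.6, 24.0 and 29.5 FPKM in the controls. It lay at 16.6, 17.4, 19.8 and 15.1 FPKM in the knockout and at 20.9, 19.2 and 20.2 after TAC. Both groups stayed below the lowest control, the TAC libraries by a small margin. Groups separated in this way for 30.8% of all tested genes in the knockout and 31.6% after TAC. Rxrg fell in the knockout by 0.51 on the log2 scale (SE 0.12, limma adjusted p = 0.0125), and the TAC difference of -0.29 was not called (adjusted p = 0.153). The knockout call was lost without rescaling (adjusted p = 0.0884) and without control replicate 3 (adjusted p = 0.0505).

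Most Rxrg signal was assigned to an internal start. Rxrg-202, which begins at chr1:167618309, held 91.5 to 96.8% of the gene's FPKM in each library, and the models that begin 19.9 kb upstream at chr1:167598384 held 3.23 to 8.55%. In GENCODE each of the 3 upstream models encodes 463 codons and Rxrg-202 encodes 340, with its first coding base at chr1:167625000. The downstream start was at 20.02, 22.6 and 28.2 FPKM in control libraries and at 15.7, 15.9, 18.3 and 13.9 in the knockout, and it fell by 0.53 on the log2 scale (limma adjusted p = 0.0156). That call was lost without control replicate 3, without a filter on the mean and without rescaling (adjusted p of up to 0.0974). The upstream start was at 1.25 to 1.56 FPKM in the controls and 0.902 to 1.499 in the knockout and was not called (-0.09, adjusted p = 0.742). Whether the share of either start changed was tested with limma's diffSplice, which sets a start against the other starts of its gene, and the difference was not called (adjusted p = 0.187 in the knockout and 0.911 after TAC).

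The 250 bases before both RefSeq starts of Rxrg are shown to set the start with little assigned signal beside the one with most. The upstream run is chr1:167598112-167598361 and the downstream run chr1:167618015-167618264, both on the plus strand of GRCm38.p6. Capitals mark AGGTCA, which is present once in the downstream run, 88 bases before the start, and in neither strand of the upstream run:

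Rxrg upstream promoter: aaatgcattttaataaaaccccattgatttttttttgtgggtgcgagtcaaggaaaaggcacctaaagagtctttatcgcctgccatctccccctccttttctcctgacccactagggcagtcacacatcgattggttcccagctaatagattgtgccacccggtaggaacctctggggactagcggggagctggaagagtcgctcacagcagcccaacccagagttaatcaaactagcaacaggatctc

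Rxrg downstream promoter: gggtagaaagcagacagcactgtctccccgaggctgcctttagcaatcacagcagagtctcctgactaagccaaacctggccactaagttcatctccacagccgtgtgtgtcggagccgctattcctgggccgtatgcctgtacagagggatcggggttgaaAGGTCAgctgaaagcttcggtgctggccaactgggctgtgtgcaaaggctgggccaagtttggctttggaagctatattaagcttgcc

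Rxrb (chr17:34031812-34038393, plus strand), the ubiquitous member of the family, lay at 9.32 to 11.1 FPKM in the controls, 9.34 to 9.97 in the knockout and 7.68 to 11.3 after TAC. The ranges overlapped in both comparisons. Its log2 fold changes were -0.07 in the knockout (95% interval -0.33 to 0.19) and -0.15 after TAC (-0.42 to 0.13). The summed RXR level was 43.2 to 51.0 FPKM in the controls, 32.6 to 36.3 in the knockout and 34.7 to 38.2 after TAC, with no overlap with the controls. Among all tested genes 30.8% separated from the controls in the knockout and 31.6% after TAC. The sum contains Rxra and Rxrg, which separated in the same way, so it is not an independent result. Within that sum the share of Rxrb was 20.3 to 23.7% in the controls and 27.4 to 29.6% in the knockout. After TAC it was 22.1 to 30.1%, which overlapped the controls.

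Ppara (chr15:85734983-85802819, plus strand), the PPAR that drives fatty acid oxidation genes in heart and liver, made up 79.5 to 88.2% of the summed Ppara and Ppard level. It lay at 26.8, 25.9 and 18.3 FPKM in the controls. It lay at 13.2, 16.7, 15.1 and 14.7 FPKM in the knockout, all below the lowest control, and at 18.5, 24.0 and 14.5 after TAC, which overlapped the controls. Knockout and control did not overlap for 30.8% of all tested genes. Ppara fell in the knockout by 0.62 on the log2 scale (SE 0.17, limma adjusted p = 0.0244), and the TAC difference of -0.31 was not called (adjusted p = 0.278). The knockout call was lost without a filter on low genes (adjusted p = 0.073) and when any 1 of control replicate 1 (0.086), control replicate 2 (0.0887) and knockout replicate 1 (0.0599) was left out. Its 2 main models, Ppara-201 and Ppara-202, encode the same 468 codons, and neither was called on its own (limma adjusted p = 0.0502 and 0.0571 in the knockout), while the sum over their shared start region was called (-0.66, adjusted p = 0.0362).

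The sum of liver transcripts was lower in both groups than in the controls, though not every marker was. The 9 hepatocyte markers summed to 6.78, 10.2 and 6.92 FPKM in the controls, 0.711 to 2.26 in the knockout and 1.11 to 1.56 after TAC. Alb, the albumin gene, was at 3.49 to 4.15 FPKM in the controls and at most 0.0516 in the other libraries, and Hnf4a was at most 0.0215 FPKM in any library. Ttr, another of the 9, overlapped between the groups (0.354 to 0.602, 0.0638 to 0.540 and 0.281 to 0.591 FPKM in the same order). Only 2 of the 9 were above the filter on the mean. Ppara and Rxra are also liver genes, and the part of this trace signal in their differences was not tested. Adipocyte markers (7 genes) summed to at most 0.438 FPKM in every library, with Lep at 0 in all of them.

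Ppard (chr17:28232754-28301469, plus strand), the ubiquitous PPAR, was the lowest of the 10, with 3.11 to 4.36 FPKM in the controls, 3.34 to 4.002 in the knockout and 3.22 to 4.32 after TAC. The 3 ranges overlapped. The intervals of its log2 fold changes were -0.37 to 0.18 in the knockout and -0.38 to 0.21 after TAC, and neither was called.

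Ppargc1a (chr5:51454250-51567726, minus strand), the PGC-1 coactivator induced by cold, exercise and fasting, varied most of the 10, with a highest to lowest ratio of 3.98 over the libraries. It lay at 38.6, 61.8 and 42.9 FPKM in the controls. It lay at 24.7, 24.5, 21.4 and 24.4 FPKM in the knockout and at 24.9, 85.2 and 25.3 after TAC. All 4 knockout libraries were below the lowest control, as were 2 of the 3 TAC libraries, while TAC replicate 2 was above every other library. A lack of overlap between knockout and control was found for 30.8% of all tested genes. The knockout mean was 49.7% of the control mean, but the log2 fold change of -0.95 (SE 0.35) was not called (limma adjusted p = 0.0739, unadjusted p = 0.0181). All 3 groups shared 1 estimate of the spread in this model. The TAC difference was -0.30 (SE 0.37, adjusted p = 0.643). Without TAC replicate 2 the adjusted p was 0.00176 in the knockout with the same fold change, and 0.0118 after TAC with a log2 fold change of -0.87. The knockout difference was also called when only the control and knockout libraries were fitted (adjusted p = 0.00334) and with a term for depth (0.0135).

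TAC replicate 2 also had the highest erythroid marker sum (1677 FPKM over 7 genes, beside 130 to 1369 in the others). It was the one female among the TAC mice, as read from Xist and the Y-linked genes. The erythroid sum was high in all TAC libraries (952 to 1677 FPKM), beside 288 to 1198 in the controls and 130 to 633 in the knockout. TAC replicate 1 had a sum of 1369 FPKM with Ppargc1a at 24.9. With sex as a term in the model, the Ppargc1a differences were -0.98 (adjusted p = 0.0716) in the knockout and -0.18 (adjusted p = 0.811) after TAC. The part of the red cell signal was not tested.

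The models of Ppargc1a fall into 2 groups by their start. The downstream group of models begins at chr5:51553922 on the minus strand and includes Ppargc1a-203, which encodes the full 797 codons. The upstream group begins at chr5:51567726, at a first exon known from exercised and adrenergically stimulated muscle. The downstream start was at 23.5 to 28.0 FPKM in the controls, 14.0 to 18.6 in the knockout and 16.7 to 48.5 after TAC. The upstream start was at 11.04 to 33.8 FPKM in the controls, 5.93 to 8.86 in the knockout and 7.25 to 36.7 after TAC. TAC replicate 2 was the highest library at both. Neither start was called in either comparison, with adjusted p of 0.155 and 0.102 in the knockout, and the share of the upstream start was 28.6 to 54.7% in the controls and 24.2 to 35.9% in the knockout (diffSplice adjusted p = 0.694). The upstream start is represented by a model of 488 nt with 142 codons (Ppargc1a-202) and by a model marked for nonsense-mediated decay, so how Cufflinks divided shared exons between the starts is uncertain.

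Ppargc1b, the second PGC-1 coactivator, was at 5.69 to 9.60 FPKM in the controls, 5.18 to 9.45 in the knockout and 5.27 to 10.3 after TAC. The 3 ranges nearly coincided. Its log2 fold changes were 0.04 in the knockout and -0.01 after TAC, with 95% intervals of -0.46 to 0.55 and -0.55 to 0.53. Its share of the summed PGC-1 level was 10.4 to 19.9% in the controls and 17.4 to 27.9% in the knockout.

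Esrra (chr19:6910977-6921813, minus strand), the ERR that PGC-1 coactivates on respiratory chain genes, was at 42.7, 56.3 and 46.1 FPKM in the controls. It was at 39.7, 40.4, 46.9 and 36.6 FPKM in the knockout and at 44.4, 46.3 and 49.0 after TAC. Both groups overlapped the controls, and neither difference was called (-0.23, adjusted p = 0.188, and -0.05, adjusted p = 0.851, by limma). The 3' end of Esrra overlaps Trmt112 on the opposite strand, which had a mean of 15.4 FPKM as deposited, and how strand was used in counting is not given in the sources used here. Esrrb (chr12:86361117-86521628, plus strand), best known from embryonic stem cells and placenta, was at 6.82 to 8.61, 6.94 to 9.17 and 7.60 to 7.97 FPKM in the 3 groups, and was not called either.

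Esrrg (chr1:187608791-188214885, plus strand), the ERR of highly oxidative tissues, was not called as a whole gene. It was at 12.8, 9.59 and 10.5 FPKM in control libraries, 8.69, 10.4, 9.63 and 11.3 in the knockout, and 10.2, 8.17 and 9.29 after TAC. The groups overlapped, with log2 fold changes of -0.12 (limma adjusted p = 0.555) and -0.22 (adjusted p = 0.288). Beneath this total the FPKM assigned to its 2 main transcripts moved in opposite directions in both groups. Cufflinks divides reads among transcripts that overlap, as these 2 do. Their values therefore carry its estimation error and are not independent of each other.

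Esrrg-203 begins at the upstream end of the gene, at chr1:187609029, and Esrrg-201 begins far downstream at chr1:187997827. Esrrg-201 encodes 458 codons, the first of them in its own first exon at chr1:187997997. Esrrg-203 encodes 435 codons, the first of them at chr1:188043347, which is also the first coding base of the minor downstream model Esrrg-202. Their promoters are shown because the finding turns on which of them was used. The upstream run is chr1:187608900-187609005, the 106 bases before the RefSeq start that lie in no annotated exon, and the downstream run is chr1:187997577-187997826, the 250 bases before the start. Both are on the plus strand of GRCm38.p6. Capitals mark a match to the MEF2 element, 22 bases before the upstream start, and the downstream run holds none of the motifs searched:

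Esrrg upstream promoter: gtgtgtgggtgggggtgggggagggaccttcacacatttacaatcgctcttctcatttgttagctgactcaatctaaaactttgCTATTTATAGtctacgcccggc

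Esrrg downstream promoter: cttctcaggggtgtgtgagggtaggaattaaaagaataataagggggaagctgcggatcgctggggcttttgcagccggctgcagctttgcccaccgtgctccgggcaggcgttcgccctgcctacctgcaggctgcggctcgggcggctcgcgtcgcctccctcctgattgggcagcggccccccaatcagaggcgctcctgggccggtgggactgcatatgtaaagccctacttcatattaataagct

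Esrrg-203, from the upstream start, was at 3.80, 3.15 and 2.62 FPKM in control libraries, 6.26, 6.92, 5.63 and 6.82 in the knockout, and 6.37, 5.08 and 5.62 after TAC. It rose by 0.83 on the log2 scale in the knockout (SE 0.12, limma adjusted p = 0.00267) and by 0.68 after TAC (SE 0.13, adjusted p = 0.0124). The TAC call was lost when only the control and TAC libraries were fitted (adjusted p = 0.0547). Every library of both groups was above every control. Of all tested genes 30.8% separated from the controls in the knockout and 31.6% after TAC, and the share over all transcripts was not counted. Esrrg-201, from the downstream start, was at 5.95, 4.88 and 6.17 FPKM in control libraries, 1.92, 2.84, 3.11 and 3.23 in the knockout, and 2.54, 2.11 and 2.97 after TAC. It fell by 0.83 in the knockout (SE 0.15, adjusted p = 0.00714) and by 0.91 after TAC (SE 0.16, adjusted p = 0.00842), again with no overlap. In all, 4 of 24 tested transcripts of the 10 genes were called in the knockout and 3 of 24 after TAC, beside 14.6% and 10.1% of all 17685 transcripts.

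Cufflinks gives each transcript a 95% confidence bound from its division of reads. As deposited, the bounds of Esrrg-203 spanned 2.15 to 3.89 FPKM over the controls, 5.58 to 7.61 over the knockout and 4.32 to 6.86 over TAC. Those of Esrrg-201 spanned 4.22 to 6.65, 1.71 to 3.84 and 1.66 to 3.49 FPKM. For both transcripts the bounds of the controls did not overlap those of either other group. The share of all transcripts with such a separation was not counted. These bounds are set within each library and do not measure the spread between mice. The mean coverage per base of these 2 transcripts ranged from 7.90 to 35.8 reads over the libraries.

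Transcripts whose starts lie within 500 nt of each other were also summed, in an analysis chosen after the transcript values had been seen. These sums consist mostly of Esrrg-203 and Esrrg-201. They and the tests on them therefore restate the same division of reads and are not separate support. Use of a start means here the FPKM that Cufflinks assigned to it. The upstream start, 389 kb from the downstream one, was at 4.50, 3.70 and 3.91 FPKM in control libraries, 6.26, 6.92, 5.63 and 6.82 in the knockout, and 6.37, 5.08 and 5.62 after TAC. The downstream start was at 7.16, 5.17 and 6.17 FPKM in control libraries, 2.05, 2.99, 3.33 and 3.33 in the knockout, and 2.79, 2.69 and 3.25 after TAC. The upstream start held 35.1 to 38.6% of Esrrg FPKM in the controls, 58.4 to 72.1% in the knockout and 60.5 to 62.5% after TAC. The ratio of upstream to downstream level was therefore 0.66 ± 0.05 in the controls (SD, n = 3), 2.28 ± 0.58 in the knockout (n = 4) and 1.97 ± 0.29 after TAC (n = 3).

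**Figure D3:**
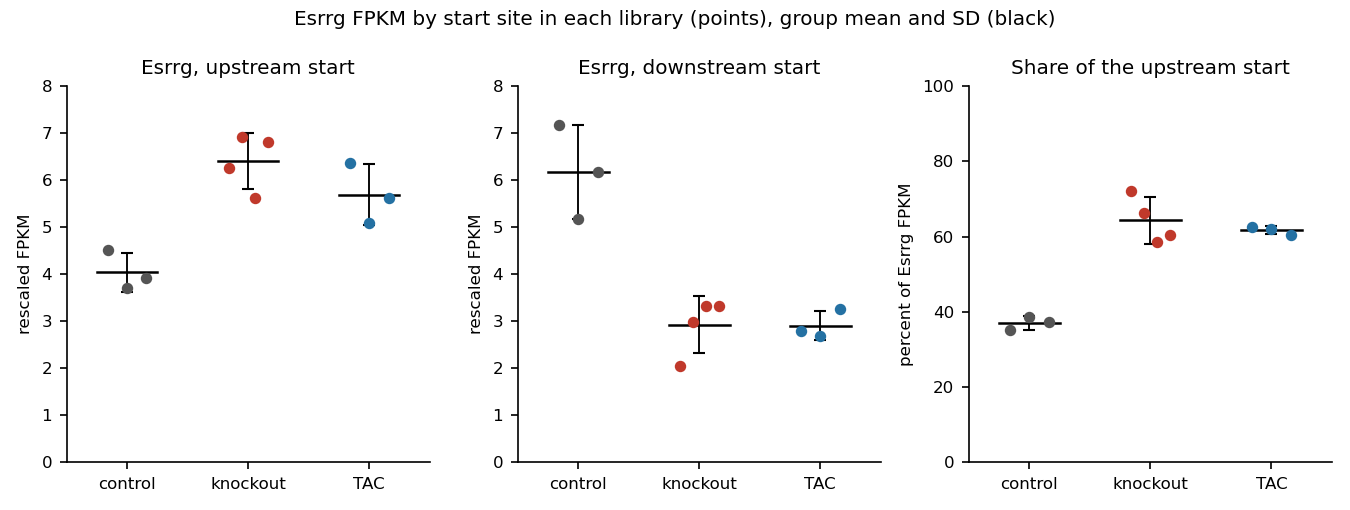
Rescaled FPKM of the upstream and downstream start of Esrrg (left and middle, vertical axes from 0 to 8) and the percent of Esrrg FPKM from the upstream start (right, 0 to 100) in each library; black lines are the group mean and SD. The upstream share is 35.1 to 38.6% in the 3 controls and 58.4% or more in the 4 knockout and 3 TAC libraries.

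The difference between the starts was 1.43 on the log2 scale in the knockout (diffSplice adjusted p = 8.22e-05) and 1.28 after TAC (adjusted p = 0.000917). Among the 4959 start sites of genes with several, 5.95% and 3.93% were called in these comparisons. Leaving out any 1 library kept both calls, with differences of 1.32 to 1.53 in the knockout and 1.18 to 1.34 after TAC. Between knockout and TAC the use of the starts differed by 0.15 (adjusted p = 0.931). As single levels, the downstream start fell in both groups (-0.87, adjusted p = 0.00321, and -0.87, adjusted p = 0.00617) and the upstream start rose in both (0.56, adjusted p = 0.00616, and 0.41, adjusted p = 0.0405). The rise of the upstream start after TAC was lost in 13 of 24 alternatives, with an adjusted p of up to 0.125. In all, 5 of 14 tested start sites of the 10 genes were called in the knockout and 3 of 14 after TAC, beside 18.1% and 13.1% of all start sites tested. The upstream sum in the controls includes Esrrg-204, a 450 nt model listed at 0.56 to 1.29 FPKM there and at or near 0 in every other library.

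**Figure D4:**
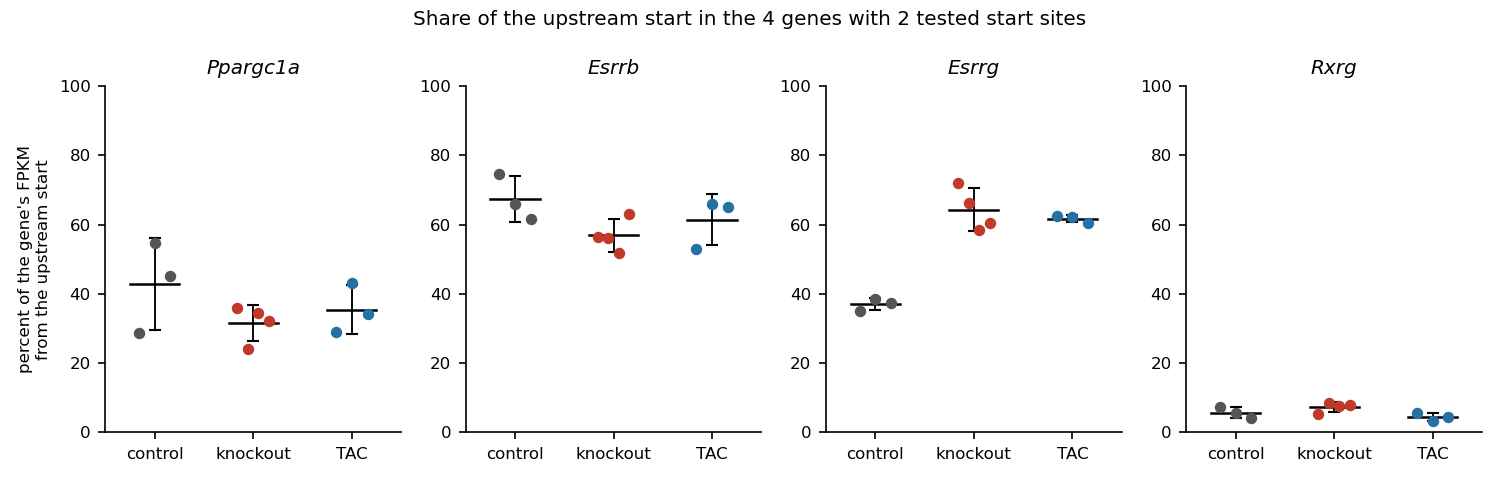
Percent of a gene's FPKM from its upstream start (vertical axis, 0 to 100) in the 4 genes with 2 tested start sites, by library; black lines are the group mean and SD. The groups separate for Esrrg, at 35.1 to 38.6% in the controls, while Rxrg lies at 3.23 to 8.55% in all 10 libraries.

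Of the 10 genes, 4 had 2 tested start sites, and a change in the FPKM assigned to one start against the other was called for Esrrg alone. Of all 2032 genes with several tested start sites, 8.71% were called in the knockout and 5.31% after TAC. These shares are from diffSplice's Simes test, which joins the p-values of a gene's starts, at an adjusted p under 0.05. Esrrb had a difference between its starts of -0.43 in the knockout (diffSplice adjusted p = 0.199) and -0.22 after TAC (adjusted p = 0.663), its upstream start holding 61.6 to 74.6% of FPKM in the controls and 51.8 to 63.1% in the knockout.

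Of 40 genes listed as PPAR targets, 34 were tested, and in the knockout 21 of them fell and none rose. The median of the list was -0.58 on the log2 scale, and 10.2% of all genes fell. Acot1, a cytosolic acyl-CoA thioesterase, went from 10.2 ± 0.73 FPKM in the controls (SD, n = 3) to 2.16 ± 0.34 in the knockout (n = 4), a log2 fold change of -1.83 (limma adjusted p = 7.67e-06). Acaa2, the thiolase of mitochondrial beta-oxidation, went from 429 to 169 FPKM (-1.35, adjusted p = 0.000184). Hadh, a beta-oxidation dehydrogenase, went from 235 to 126 FPKM (-0.89, adjusted p = 0.000436), and Acot2 from 41.2 to 15.2 (-1.37, adjusted p = 4.7e-05). Without rescaling 13 of the 34 fell.

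After TAC 12 of the 34 PPAR targets fell and none rose, with a list median of -0.24, beside 7.37% of all genes lower. Acot1 was at 4.47 FPKM (-1.04, limma adjusted p = 0.00051) and Acaa2 at 222 (-0.95, adjusted p = 0.00303). The count after TAC ranged from 4 to 16 over the alternatives, and it was 5 without TAC replicate 1 or control replicate 2, 6 without control replicate 3 and 7 without TAC replicate 2. Between knockout and TAC 5 were lower in the knockout: Acot1, Acot2 (a mitochondrial thioesterase), Acadl (a long-chain acyl-CoA dehydrogenase), Cd36 (the fatty acid transporter) and Lpl (lipoprotein lipase). Over all genes 1.7% were called lower in the knockout than after TAC. Cd36 was at 692 FPKM in the controls, 388 in the knockout and 611 after TAC, and the knockout differed from TAC by -0.65 (adjusted p = 0.0206). This count of 5 was 3 without knockout replicate 1 or TAC replicate 1, and 2 without knockout replicate 3, TAC replicate 2 or TAC replicate 3.

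Of 33 tested ERR and PGC-1 targets 6 fell in the knockout (Cox7a1, Fbp2, Got1, Idh3a, Ldhb and Ndufs1), 3 fell after TAC (Cox7a1, Fbp2 and Sdha), and none rose. Over all genes 10.2% fell in the knockout and 7.37% after TAC, and the list medians were -0.17 and -0.12. Fbp2, the muscle fructose bisphosphatase, was at 13.0 FPKM in the controls, 3.43 in the knockout (-1.67, limma adjusted p = 0.000105) and 3.76 after TAC (-1.59, adjusted p = 0.000335). The other 6 genes called in either comparison had smaller differences. Cox7a1, a muscle subunit of cytochrome c oxidase, differed by -0.56 and -0.54. Idh3a, an enzyme of the tricarboxylic acid cycle, differed by -0.47 in the knockout. The count ranged from 2 to 8 in the knockout and from 1 to 10 after TAC over the alternatives. Without knockout replicate 2, control replicate 2 or control replicate 3 it was 3 in the knockout, and without TAC replicate 1, TAC replicate 2, control replicate 3, knockout replicate 1 or knockout replicate 2 it was 1 after TAC.

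**Figure D5:**
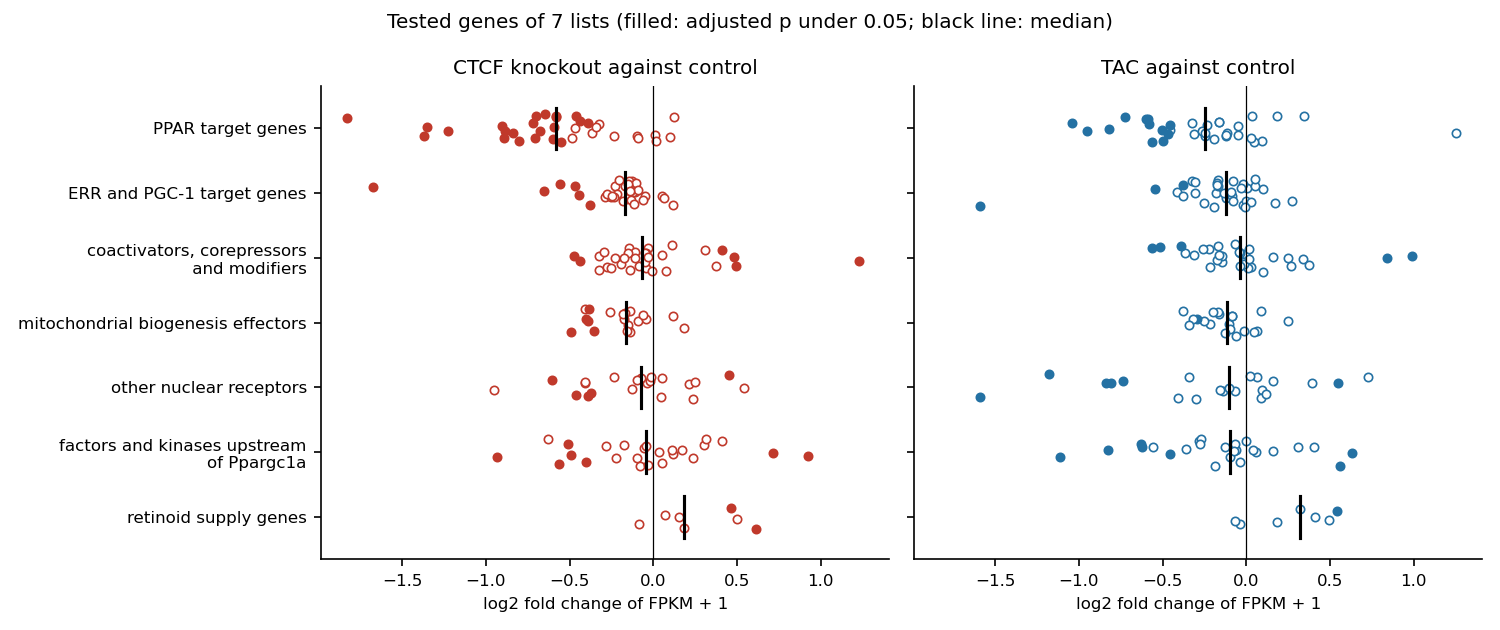
Log2 fold change of FPKM + 1 against control (horizontal axis) for each tested gene of 7 lists, in the knockout (left) and after TAC (right); filled points have a limma adjusted p under 0.05 and the black line is the list median. The PPAR targets have the lowest median in the knockout (-0.58), while the medians of the coactivators (-0.07) and of the upstream factors (-0.05) are close to 0.

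Among 32 tested coactivators, corepressors and modifiers 4 rose and 2 fell in the knockout, and 2 rose and 3 fell after TAC. Over all genes 10.6% rose and 10.2% fell in the knockout, and 8.08% rose and 7.37% fell after TAC. Without control replicate 1 the 4 higher calls in the knockout became 2. The 2 lower calls there became 1 without any 1 of the controls, without knockout replicate 1 or 4, without a filter on the mean or with the replicate block, and 0 without rescaling. Prkag2, a regulatory subunit of AMP-activated kinase, rose from 4.36 to 11.6 FPKM (1.23, limma adjusted p = 9.26e-05) and to 9.68 after TAC (0.99, adjusted p = 0.000739). Prkab2, another subunit of this kinase, also rose in both (0.48 and 0.84). Carm1, an arginine methyltransferase that modifies PGC-1, and Prkag1 rose in the knockout, by 0.49 and 0.41. Both were called higher there than after TAC, as were 1.58% of all genes. This count of 2 held in 15 of 24 alternatives and was 1 in the others, among them the fits without any 1 of the TAC libraries or without knockout replicate 1, 2 or 3. Fbxw7, part of a ubiquitin ligase, fell in both (-0.47 and -0.52), Lpin1, a phosphatidate phosphatase that also acts as a coactivator, fell in the knockout (-0.44), and Sirt1, the deacetylase of PGC-1, fell after TAC with Prkab1 (-0.56 and -0.39).

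Among 25 tested transcription factors and kinases known to act upstream of Ppargc1a, 2 rose and 5 fell in each comparison, beside 10.6% higher and 10.2% lower over all genes in the knockout and 8.08% and 7.37% after TAC. Hif1a, the hypoxia factor, rose from 17.1 to 33.5 FPKM in the knockout (0.93, limma adjusted p = 0.000667) and to 25.7 after TAC (0.56, adjusted p = 0.0197). Klf15, a factor that favours lipid use in heart, fell from 25.7 to 12.8 FPKM (-0.93, adjusted p = 0.00735) and to 14.3 after TAC (-0.82, adjusted p = 0.0236). Mef2a, which encodes a muscle factor, fell in both (-0.40, adjusted p = 0.0152, and -0.63, adjusted p = 0.0029), as did Creb1, the cyclic AMP response factor (-0.49 and -0.46). The other calls were Mapk12 higher and Epas1 and Mapk14 lower in the knockout, and Mtor higher and Foxo3 and Hdac4 lower after TAC. The 2 higher calls after TAC became 1 without TAC replicate 1, TAC replicate 3 or control replicate 2, or without a filter on the mean. The 5 lower calls after TAC became 1 without control replicate 1, 2 without TAC replicate 3, and 3 without TAC replicate 1, TAC replicate 2 or control replicate 2.

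Of 20 tested effectors of mitochondrial biogenesis 5 fell in the knockout (Lrpprc, Mterf2, Tfb1m, Top1mt and Twnk) and 1 after TAC, Twnk, the mitochondrial DNA helicase (-0.39, limma adjusted p = 0.00757, and -0.29, adjusted p = 0.0472). Over all genes 10.2% and 7.37% fell. The count of 1 after TAC held in 6 of 24 alternatives, and in 1 of the 10 that left out a library, and was 0 in the others. The knockout count was 0 without rescaling and 1 to 3 with any 1 of the control or knockout libraries left out. Of 21 tested other nuclear receptors 1 rose and 4 fell in the knockout, and 1 rose and 5 fell after TAC, beside 10.6% higher and 10.2% lower over all genes in the knockout and 8.08% and 7.37% after TAC. The 4 lower calls in the knockout became 2 without any 1 of the controls or knockout replicates 1, 3 or 4. Thrb, a thyroid hormone receptor, went from 5.18 to 3.05 and 2.70 FPKM (-0.61, adjusted p = 0.00202, and -0.74, adjusted p = 0.0013), and Rarb, a retinoic acid receptor, fell in both (-0.39 and -0.81). Rara, another retinoic acid receptor, rose in both (0.45, adjusted p = 0.0192, and 0.55, adjusted p = 0.0128), and its knockout call was lost without knockout replicate 2 or 3 and with the replicate block. Nr1h3 and Thra fell in the knockout, and Nr1d2 and Nr3c2 fell after TAC. Esr1, called lower after TAC, was listed at 416 to 2960 FPKM over the libraries, above all 10 regulators in each. Its control libraries (1306 to 2960 FPKM) and TAC libraries (416 to 1657) overlapped, and the source of this high level was not tested. From the list of retinoid supply genes, Rdh11, a retinal reductase, rose in both (0.47, adjusted p = 0.0157, and 0.55, adjusted p = 0.013).

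For the most abundant gene of each family, the tested genes with the most similar profile over the 10 libraries were found by Pearson's r of log2 values, as a description that takes the highest of all tested genes. Among the genes most like Ppara were BC002163 (0.961) and Spsb1 (0.933), and Rxrg was most like Ndufab1 (0.972), Adra1b (0.962) and Impa2 (0.958). Ppargc1a was most like Ccl9 (0.932), Tgoln1 (0.931) and Cd81 (0.926), and each of these peaked in TAC replicate 2 or control replicate 2. Esrra was most like Mrpl28 (0.937), Prorsd1 (0.934) and Nipa2 (0.933).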

How the data were processed

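The RNA of 3 control, 4 CTCF knockout and 3 TAC mice was sequenced after ribosomal RNA removal and stranded library preparation, with paired reads of 100 nt, per the labels' protocols. The labels also name the molecule as polyA RNA, which differs from the protocol's ribosomal RNA removal, and the protocol is followed here. The submitters' processing notes name the build mm10, the aligners Bowtie2 and TopHat2 2.1.0, and Cuffdiff with Cufflinks 2.2.1. The deposited Cufflinks files also hold a score that ranks a transcript within its gene, which was not used. The deposited files give FPKM per transcript for 109869 Ensembl transcripts, and the authors' annotation release is not given in the sources used here. Their median coverage per FPKM ranged from 3.90 to 6.09 reads per base between libraries, which is the depth the files show.

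FPKM were summed by gene ID, and 44952 of 45882 IDs had a symbol. Of the IDs, 22 that switched between 0 and high values (a median of at least 100 FPKM where above 0) and 7765 with no transcript of at least 300 nt were set apart, leaving 38095. Size factors were medians of ratios (0.912 to 1.10). limma 3.58.1 in R 4.3.3 was fitted to log2(FPKM + 1) with 3 group means and a variance trend, for genes with a mean of at least 1 FPKM, with two-sided tests and Benjamini-Hochberg adjustment. Python 3.11.15 with pandas 2.3.3 and numpy 2.4.6 did the rest. The fit was tested on simulated data. Each library is a separate mouse.

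The 10 genes and all lists were chosen with earlier results of these data known. From each list up to 4 genes with the smallest adjusted p in the comparisons with control were to be named, plus those behind a count of 5 or fewer. Others were named after their values were seen. Start sites (5' ends within 500 nt) and diffSplice were added after seeing the data. Promoters came from RefSeq (GRCm38.p6, the mm10 assembly), and codons from GENCODE M21, where 48 of the 56 transcripts of these genes had the same coordinates. Alternatives covered the rescaling, filter, pseudocount, variance trend, samples fitted, depth, sex, replicate block and each library left out. Some results that the naming rules would give are not reported here.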

Additional observations from a re-analysis of the deposited data

Results flagged for a closer look

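Ppargc1a in knockout replicate 3 stood apart from its group at 21.4 FPKM, while the other 3 knockout libraries lay between 24.4 and 24.7 FPKM. The gap to the nearest library was 0.912 of the whole range of the group, above Dixon's limit for 4 samples. Of 24 sets of knockout values of these genes and start sites looked at in this way, 1 passed that limit, and chance alone passes it in about 1 of 20. All 4 values were below the lowest control, so the position of this library left the order of the groups as it was.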

How the results depend on the processing

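Each gene fit was repeated under 24 alternatives, 10 of them leaving out 1 library. The number of the 10 genes called in the knockout was 3 with a range of 2 to 4, and after TAC it was 1 with a range of 1 to 2 (2 without TAC replicate 2). Between knockout and TAC none was called in any alternative.

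For all genes, the 2362 calls in the knockout became 1487 at a mean of at least 5 FPKM and 1689 to 2320 with a library left out. The 1755 calls after TAC became 1167 at a mean of 5, 1153 with only the 2 groups fitted and 1236 to 1659 with a library left out. The 372 calls between knockout and TAC became 230 with a depth term, 195 without a filter, 200 with the replicate block, 233 with a sex term and 133 to 444 with a library left out. For all transcripts, the 2590 calls in the knockout became 1563 at a mean of 5, 1528 without a filter, 1663 with the replicate block and 1680 to 2456 with a library left out. The 1784 after TAC became 941 without a filter, 812 with only the 2 groups fitted and 963 to 1630 with a library left out. The 169 between knockout and TAC became 50 with a depth term, 80 at a mean of 0.1, 70 without a filter, 71 without rescaling, 100 with only the 2 groups fitted, 13 with the replicate block, 35 with a sex term and 4 to 173 with a library left out. The cause was not tested.

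Without rescaling the calls over all genes were 73.5% higher in place of 50.9% in the knockout, 66.4% in place of 52.3% after TAC, and 63.9% in place of 48.1% between knockout and TAC. The sign of differences near 0, none of them called, changed as follows, and the cause was not tested. In the knockout it changed without rescaling for Ppard (0.013), Esrrg (0.004) and Rxrb (0.05), and for Ppargc1b with the replicate block (-0.049) and with a library left out (-0.115 to 0.218). After TAC it changed for Ppargc1b (0.046 without rescaling, -0.237 to 0.189 with a library left out), Esrra (0.018 and -0.129 to 0.067) and Esrrb (-0.018 to 0.13 with a library left out). Between knockout and TAC it changed for Ppard (0.032 with a depth term, 0.047 without rescaling, 0.018 with the replicate block, 0.022 with a sex term, -0.061 to 0.107 with a library left out). There it also changed for Ppargc1b (-0.038 with the replicate block, -0.145 to 0.281), Rxrb (-0.017 with a depth term, -0.036 to 0.217), Rxra (-0.12 to 0.022), Esrrg-201 (-0.006 to 0.203) and the downstream Esrrg start (0.108 with a depth term, 0.041 without rescaling, -0.058 to 0.11).

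The replicate numbers share only a label: of 9 same-numbered pairs 4 had a correlation of deviations over 0.1, from -0.359 to 0.327. With the replicate block 1816, 1544 and 200 genes were called in the 3 comparisons, and 3, 1 and 0 of the 10. Ppard, Esrrg-201, the downstream Esrrg start and the upstream Rxrg start were not tested at a mean of 5 FPKM.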
